A study of Mus musculus with 6 samples.

Results

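The genes described here are 37 mouse genes that mark macrophages and other myeloid cells, together with a few genes that all leukocytes share, followed on 6 expression arrays of colon tumours. They were taken by name from a fixed list, and a gene counted as measured where the platform annotation gave it a probe set of its own. That held for 36 of the 37 genes, out of 18193 genes measured in the same way on the arrays, and for 67 of 45037 probe sets. The arrays read each transcript with sets of short oligonucleotides, and such a probe set gives 1 value. Lilrb4a, an inhibitory immunoglobulin-like receptor, was represented only by a probe set annotated to more than 1 gene and is not analysed here.

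Total RNA came from colon tumours of 3 wild type control mice and of 3 mice with the genotype IL8 transgenic, which carry a human IL8 gene. All 6 animals were of the mixed CBA/C57BL/6 strain and are recorded as male. Human IL8 (CXCL8) is a neutrophil-attracting chemokine that mice lack. The age of the mice, the promoter of the transgene, the way the tumours were induced and whether an array holds 1 tumour or a pool were not stated in the labels. Nothing says more about the replicates than their number, so p-values measure the spread between these samples, which may be partly technical.

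Macrophages are phagocytes of the mononuclear lineage. They depend on signalling through the CSF1 receptor and on the transcription factor PU.1, encoded by Spi1, which binds purine-rich DNA with a GGAA core. In the colon they are replaced largely from blood monocytes, which enter through the chemokine receptor CCR2, and mature cells there often carry CX3CR1. They clear debris with scavenger receptors, read antibody with Fc receptors, make most of the complement component C1q in the tissue and digest what they take up with lysosomal cathepsins.

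The transgenic tumours had lower values than the control tumours for most of these genes, but 0 of the 30 genes that could be tested passed. Genes entered the test when 3 or more of the 6 arrays reached a log2 level of 4. With limma 0.0570% of all tested probe sets reached an adjusted p under 0.05, and the smallest adjusted p among the 30 genes was 0.769. At an unadjusted limma p under 0.05, 13 of the 30 were lower and 0 were higher, while 3.63% of all tested genes were lower at that p. All differences below are transgenic minus control on the log2 scale, so that -1 is a halving of signal. The largest differences were those of the fractalkine receptor gene Cx3cr1 (-2.48), the SLAM-family receptor gene Cd244a (-2.30) and the cytoskeletal gene Aif1 (-2.20), which encodes IBA1. In whole tumours, fewer cells of a type and less RNA per cell cannot be told apart.

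Of the 30 tested genes, 28 had a lower mean in the transgenic group, where 53.8% of all 10288 tested genes did. Their median difference was -0.97, against -0.025 over all tested genes. One of the 28, Ctss, had group means that were equal to 2 decimals (11.78), so its direction carries no weight. Over the 36 measured genes with no filter, 33 were lower and the median was -0.71, against -0.001 over all genes and with 50.2% of them lower. These counts describe the list and are no test of it, because its genes were chosen with earlier results of these arrays known and vary together from array to array. One gene, Itgax, passed the filter through the control arrays alone and so had to be lower. It is also among the 13 genes that were lower at an unadjusted limma p under 0.05.

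The arrays did not contribute equally. Set against the mean of the control arrays, the median of the 30 genes lay at -0.57 on transgenic array 1, at -1.79 on array 2 and at -0.36 on array 3, and at -0.25, 0.16 and 0.19 on control arrays 1, 2 and 3. Transgenic array 2 held the lowest of the 6 values for 21 of the 30 genes, where it held the lowest for 27.6% of all tested genes. It lay under every control array for 27 of the 30, against 37.1% of all tested genes. Without it, 27 of 30 genes were still lower, but the median was -0.51 and the number at an unadjusted p under 0.05 was 7, with 2.41% of all tested genes. The count of 13 was also 3 without control array 2 (1.35% of all tested genes), 4 without control array 3 (1.43%) and 8 without transgenic array 1 (3.78%). It was 11 without control array 1 (3.38%) and 14 without transgenic array 3 (7.24%). Each of these fits also had fewer arrays from which to estimate the spread.

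**Figure D1:**
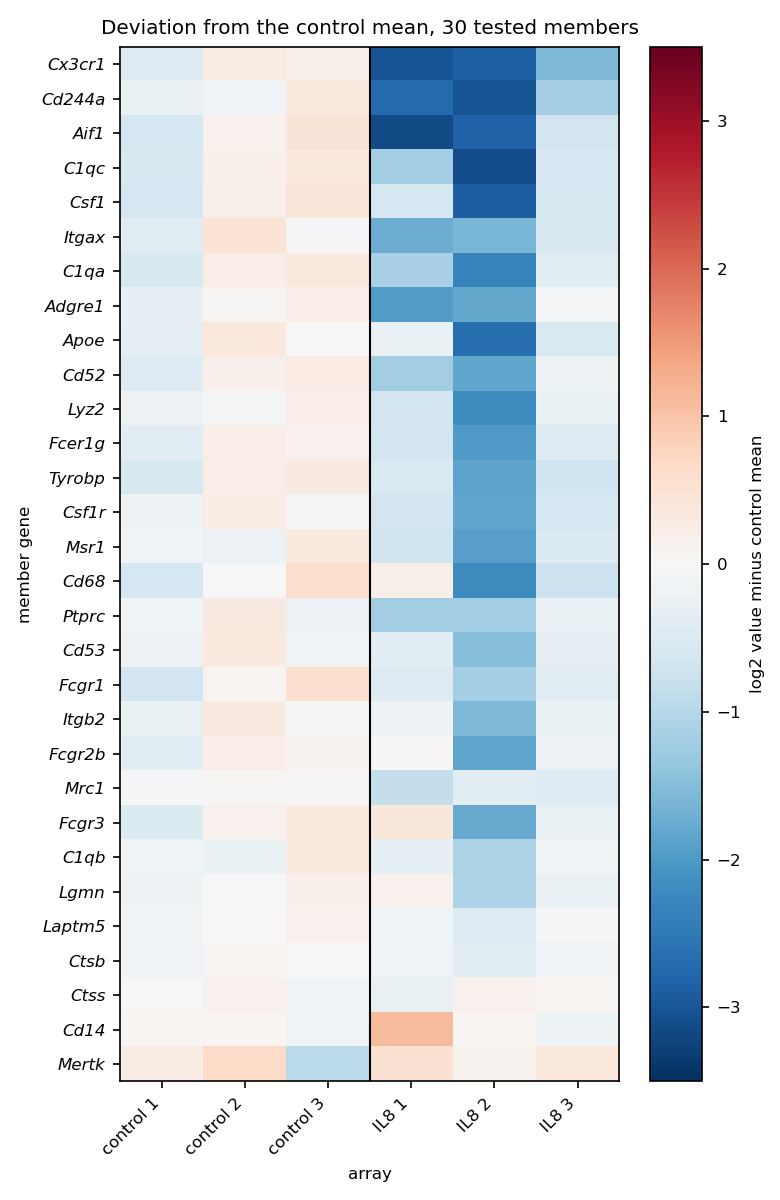
Log2 value minus the mean of the 3 control arrays (colour) for the 30 tested genes (rows, ordered by difference) on the 6 arrays (columns). The column of transgenic array 2 is blue for nearly the whole list, with a median of -1.79, while that of transgenic array 3 is pale, with a median of -0.36.

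Several facts of the whole data set bear on these values. Correlations across tested probe sets were 0.975 to 0.983 between control arrays and 0.925 to 0.954 between transgenic arrays, and array medians ran from 3.31 to 3.36. Although all mice are recorded as male, Xist ranged from 12.27 to 12.89 in the transgenic group and from 2.33 to 2.64 in the control group, and the Y-linked Eif2s3y from 2.39 to 2.71 and from 9.99 to 10.22. Genotype and this split cannot be told apart. Transgenic array 2 also stood apart in squamous epithelium genes such as Krtdap (12.31 there and 2.62 or less elsewhere).

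The sequences just before the transcription start of 6 of the genes are shown because PU.1 is known to bind promoters of many myeloid genes. Whether PU.1 has a part in the values described here was not tested. The sequences are those of the 3 genes of largest difference (Cx3cr1, Aif1 and Cd244a) and of 3 genes (Mrc1, Fcgr1 and Fcgr3). The latter were picked for having a match to the purine-rich letters GAGGAAG. Each line gives the 120 bases before the start, 5′ to 3′ on the gene's strand, from RefSeq on the build GRCm38.p6, and capitals mark a match to GAGGAAG on either strand.
Cx3cr1 (chr9:120068297-120068416, - strand): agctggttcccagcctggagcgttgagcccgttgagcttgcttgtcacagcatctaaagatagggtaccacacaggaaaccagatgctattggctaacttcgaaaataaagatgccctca
Aif1 (chr17:35176053-35176172, - strand): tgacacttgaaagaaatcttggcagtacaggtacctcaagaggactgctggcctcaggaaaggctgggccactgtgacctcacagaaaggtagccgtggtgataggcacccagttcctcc
Cd244a (chr1:171559073-171559192, + strand): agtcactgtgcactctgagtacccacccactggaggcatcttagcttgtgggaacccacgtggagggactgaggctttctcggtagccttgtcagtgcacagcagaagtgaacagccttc
Mrc1 (chr2:14229294-14229413, + strand): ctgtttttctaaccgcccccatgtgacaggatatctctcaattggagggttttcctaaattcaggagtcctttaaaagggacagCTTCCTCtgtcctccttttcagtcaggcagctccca
Fcgr1 (chr3:96293970-96294089, - strand): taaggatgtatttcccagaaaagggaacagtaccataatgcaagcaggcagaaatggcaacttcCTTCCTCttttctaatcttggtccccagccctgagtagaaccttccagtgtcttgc
Fcgr3 (chr1:171059395-171059514, - strand): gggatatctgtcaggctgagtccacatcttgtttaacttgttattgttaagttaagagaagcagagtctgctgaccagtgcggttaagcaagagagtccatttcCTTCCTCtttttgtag

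Promoter windows of 250 bases before to 50 bases after a start were found for 25 of the 37 genes, in 30 windows. GAGGAAG was present on either strand in 10 of these 30 windows (33.3%), against 13.6% of all 32851 windows, and the shorter GAGGAA, which it contains, in 17 of 30 (56.7%) against 28.3%. By gene, 9 of 25 (36%) had a GAGGAAG match, against 15.4% of all genes. The match was present in 3 of 10 genes whose transgenic arrays all lay under the control arrays and in 4 of the other 11 tested genes. Ctss, with equal group means, has a match beginning at the last base before its start, and Cx3cr1, with the largest difference, has none in its window. A match is a description of the letters and not a binding site, and the absence of one says only that these letters are not in the window.

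**Figure D2:**
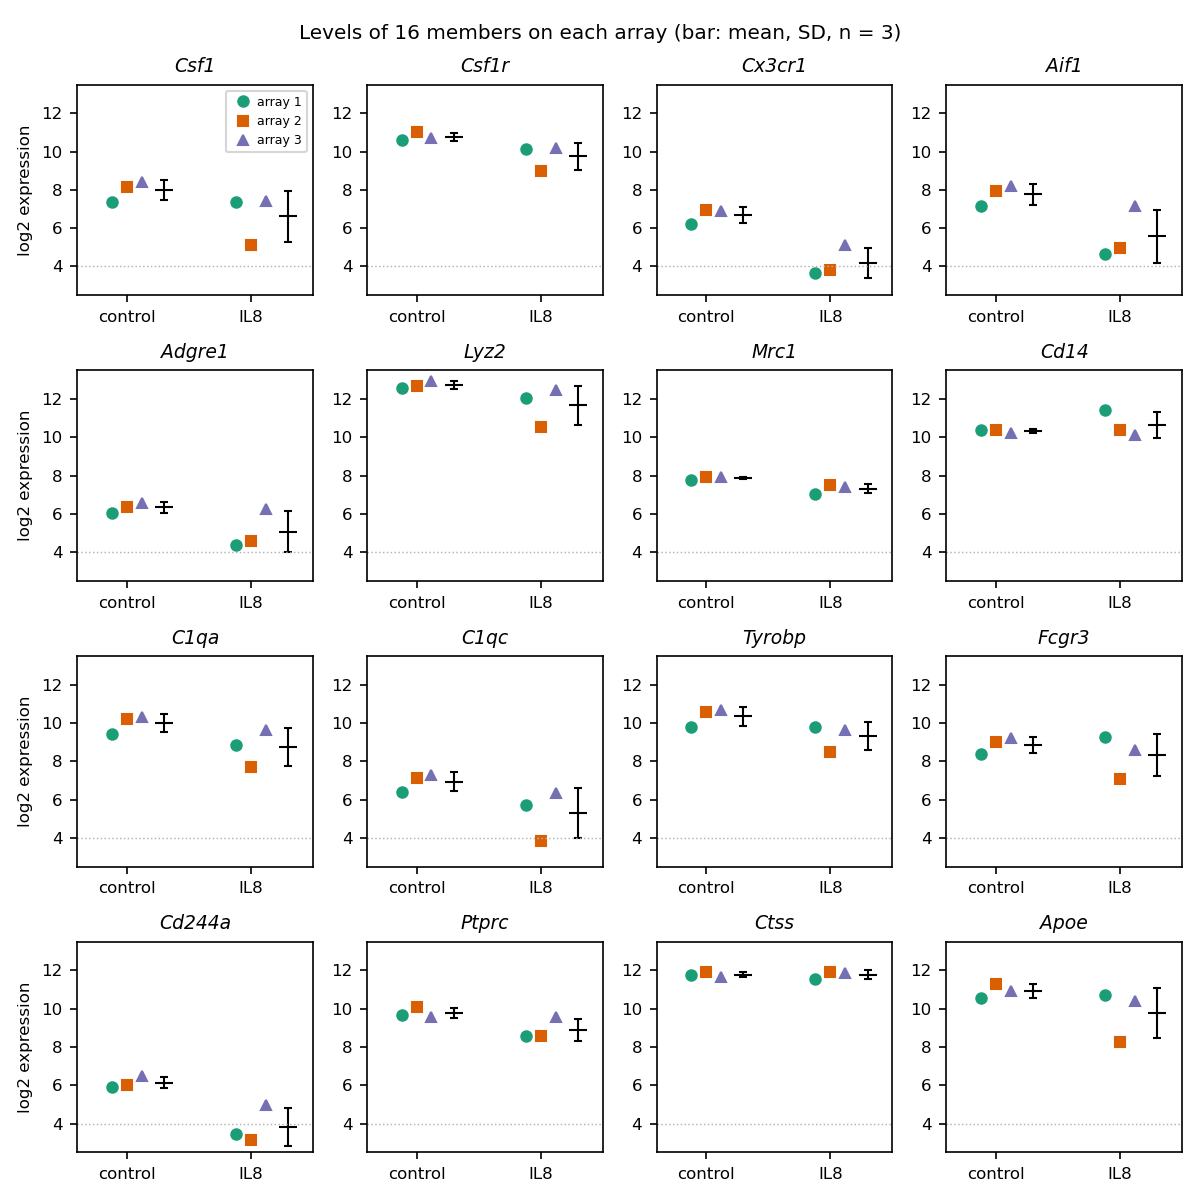
Log2 expression of 16 of the genes on each array, with control and transgenic (IL8) arrays side by side. Symbols mark arrays 1 to 3, the black bar is the mean with SD (n = 3 per group) and the dotted line is the filter level of 4. Cx3cr1 and Cd244a are low on all 3 transgenic arrays, Csf1, Lyz2 and Apoe are lowest on transgenic array 2, and Ctss is level.

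Of the growth factor axis, the groups did not overlap for the receptor gene and overlapped by a narrow margin for the ligand gene. Csf1, the ligand that macrophages need for survival, was at 7.39, 8.15 and 8.40 on the control arrays and at 7.37, 5.10 and 7.43 on the transgenic arrays. The groups overlapped, with transgenic arrays 1 and 3 at the level of control array 1 and array 2 far under all others. The difference was -1.35 ± 0.67 (SE; limma adjusted p 0.806), and -0.58 without transgenic array 2, and its other tested probe set, which overlapped too, differed by -0.62. Csf1r, the receptor for that ligand and a defining gene of the lineage, was at 10.58, 11.02 and 10.72 in control and at 10.11, 8.96 and 10.19 in transgenic tumours. Here all transgenic arrays lay under all control arrays, as they did for 13 of the 30 genes and for 6.76% of all tested genes. For some of the 13 the margin was narrow, as for Ptprc (9.55 under 9.56), Ctsb (11.54 under 11.56) and Aif1 (7.14 under 7.16). With control array 1, 2 or 3 dropped, that count of 13 became 23, 14 or 13 (16.3%, 8.45% or 10.3% of all tested genes). For transgenic arrays 1, 2 and 3 dropped in turn it was 18, 13 and 19 (13.6%, 9.71% and 17.7%). Dropping an array cannot create an overlap, so none of these counts could fall under 13. Itgax is in all of these counts, and its groups could not overlap because it passed the filter through the control arrays alone. Csf1r differed by -1.02 ± 0.36 (limma adjusted p 0.806), a 2.03-fold lower signal, and by -0.62 without transgenic array 2. Its other tested probe sets differed by -1.24 and -0.84 and did not overlap between the groups either. The latter was near the filter level, at 3.82, 3.99 and 4.12 on the transgenic arrays, and differed by -0.78 with values under 4 set to 4. Spi1, the gene of PU.1, was under the filter level on every array, at 3.34 at most, and was not tested.

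Cx3cr1, the receptor for fractalkine on monocytes and resident macrophages, had the largest difference of the list. It was at 6.22, 6.94 and 6.87 on the control arrays and at 3.65, 3.83 and 5.10 on the transgenic arrays. Transgenic arrays 1 and 2 thus lay under the filter level, and array 3 lay between them and the controls. The difference was -2.48 ± 0.43 (SE; limma adjusted p 0.769, unadjusted p 0.000956), or -2.31 with values under 4 set to 4. Leaving out each array in turn gave differences from -2.94 to -2.21, and -2.30 without transgenic array 2. Relative to the control mean Cx3cr1 deviated by -3.03, -2.85 and -1.58 on transgenic arrays 1, 2 and 3, and Csf1r by -0.66, -1.82 and -0.58. The other probe set of Cx3cr1 stayed under 4 on every array and was not tested. Ccr2, the receptor through which monocytes are recruited, was at 3.75 at most on its brightest probe set and was not tested either.

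Genes that identify tissue macrophages were lower with different array profiles. Aif1, an actin-bundling protein of macrophages, was at 7.16, 7.92 and 8.22 in control and at 4.63, 4.94 and 7.14 in transgenic tumours. Transgenic array 3 was just under the lowest control array, and the other transgenic arrays were far below. Aif1 differed by -2.20 ± 0.69 (limma adjusted p 0.806) and by -1.88 without transgenic array 2. Adgre1, which encodes the adhesion receptor used as a classical macrophage surface marker, had the same shape at 6.05, 6.37 and 6.58 against 4.38, 4.56 and 6.28, with transgenic array 3 inside the control range, and differed by -1.26 ± 0.51 (limma adjusted p 0.806).

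Lyz2, lysozyme M, was at 12.55, 12.69 and 12.96 in control and at 12.05, 10.52 and 12.46 in transgenic tumours. Its transgenic arrays all lay under the controls, but array 2 alone was far from them. It differed by -1.06 ± 0.50 (limma adjusted p 0.806), and by -0.48 without array 2. Mice have a closely related lysozyme gene, Lyz1, and whether the probes tell the copies apart was not tested. Cd68, a lysosomal glycoprotein, was at 5.78, 6.41 and 7.02 against 6.60, 4.18 and 5.66, so that transgenic array 1 lay inside the control range, and its difference of -0.92 ± 0.64 was -0.28 without array 2.

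Scavenger and pattern receptors went both ways, with 2 of the 4 tested genes lower and 2 higher. Mrc1, the mannose receptor, was at 7.79, 7.90 and 7.92 in control and at 7.04, 7.49 and 7.42 in transgenic tumours. The control values were tightly grouped (SD 0.07), and every transgenic array lay under them. The difference of -0.55 ± 0.17 (limma adjusted p 0.806) was -0.64 without transgenic array 2, whereas the difference of Csf1r, Msr1 and Lyz2 was smaller without it. Msr1, scavenger receptor A, was at 7.30, 7.22 and 7.77 against 6.73, 5.54 and 6.95. It did not overlap between groups, differed by -1.02 ± 0.40 (limma adjusted p 0.806) and by -0.59 without array 2. Its other tested probe set differed by -1.09, with groups that overlapped.

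Cd14, the coreceptor for lipopolysaccharide, went the other way. It was at 10.39, 10.39 and 10.22 in control and at 11.43, 10.40 and 10.14 in transgenic tumours, so that array 1 alone was high. Its difference of 0.32 ± 0.34 was -0.07 without that array. Mertk, a receptor for the uptake of dying cells, differed by 0.34 ± 0.42, and by -0.13 without control array 3, where it was at 4.42. Cd163 and Clec10a, an endocytic receptor for haemoglobin and a lectin, were under 4 on every array, at 2.55 and 2.93 at most, and were not tested.

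The C1q genes, which lie next to each other and encode the chains of the complement recognition molecule, shared 1 profile at different sizes. C1qa was at 9.45, 10.22 and 10.34 in control and at 8.87, 7.70 and 9.64 in transgenic tumours. C1qc was at 6.39, 7.11 and 7.31 in control and at 5.71, 3.84 and 6.34 in transgenic tumours. C1qb was at 9.82, 9.73 and 10.31 against 9.61, 8.88 and 9.82. All 3 were lowest on transgenic array 2 and closest to the controls on transgenic array 3, and at the brightest probe sets C1qc alone did not overlap, by a narrow margin. The differences were -1.27 ± 0.52 for C1qa, -1.64 ± 0.65 for C1qc and -0.52 ± 0.30 for C1qb (limma adjusted p 0.806 for each), and -0.75, -0.91 and -0.24 without transgenic array 2. The other probe sets of C1qb differed by -0.92, with groups that did not overlap, and by -1.24, so that the brightest gave the smallest difference.

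Among Fc receptors and their signalling adaptors, the adaptors were lower by a like amount. Tyrobp, the adaptor DAP12, was at 9.79, 10.59 and 10.66 in control and at 9.81, 8.50 and 9.64 in transgenic tumours, and Fcer1g, the common Fc receptor gamma chain, at 8.50, 9.14 and 9.06 against 8.26, 6.92 and 8.44. Transgenic arrays 1 and 3 lay near control array 1 for both genes, and Fcer1g alone did not overlap. Both differed by -1.03, with SE of 0.41 and 0.43 (limma adjusted p 0.806), and by -0.62 and -0.55 without transgenic array 2.

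The receptors that bind antibody overlapped between groups. Fcgr1, the high-affinity receptor, was at 4.59, 5.36 and 5.83 against 4.82, 4.06 and 4.85 and differed by -0.68 ± 0.38. Fcgr3, an activating low-affinity receptor, was at 8.38, 9.01 and 9.20 against 9.25, 7.10 and 8.61. Its transgenic arrays included both the highest and the lowest of the 6 values, and the difference of -0.54 ± 0.56 was 0.07 without transgenic array 2. Fcgr2b, the inhibitory receptor, differed by -0.66 ± 0.51 and by -0.08 without that array, and its other tested probe sets were lower as well, by -0.87, -0.88 and -1.0. Trem2, a lipid-sensing receptor that signals through DAP12, was under 4 on every array, at 3.63 at most, and was not tested.

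Cd244a, which encodes 2B4, a receptor known from natural killer cells and also found on some myeloid cells, was at 5.93, 6.02 and 6.49 in control and at 3.44, 3.13 and 4.97 in transgenic tumours. Its profile was that of Cx3cr1, with arrays 1 and 2 under the filter level and array 3 between them and the controls. It differed by -2.30 ± 0.49 (SE; limma adjusted p 0.806), by -1.82 with values under 4 set to 4 and by -1.95 at its other probe set, which did not overlap either. Leave-one-out differences were between -2.86 and -1.94.

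Of the integrin genes, only Itgax lay under the controls on every transgenic array, and it passed the filter through the control arrays alone. Itgax (CD11c), typical of dendritic cells and of macrophages of the gut, was at 4.05, 4.91 and 4.36 in control tumours and under 4 on every transgenic array (2.70, 2.83 and 3.88). With those arrays set to 4 its signal was at least 1.36-fold lower (limma adjusted p 0.806 from the values as deposited). Itgb2 (CD18), the beta chain shared by the leukocyte integrins, was at 6.95, 7.48 and 7.10 against 6.99, 5.60 and 6.94, and differed by -0.66 ± 0.40, or by -0.21 without transgenic array 2. Itgam (CD11b), the alpha chain of macrophages, monocytes and neutrophils, was at 3.56, 4.05 and 3.41 against 4.18, 3.04 and 3.55, which is around the filter level, and was not tested.

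Genes that all leukocytes share were lower too. Ptprc, the phosphatase CD45, was at 9.67, 10.08 and 9.56 in control and at 8.56, 8.58 and 9.55 in transgenic tumours. Transgenic arrays 1 and 2 were low by about the same amount, and array 3 was level with the lowest control. Ptprc differed by -0.87 ± 0.32 (limma adjusted p 0.806), and by -0.72 without transgenic array 2. Cd53, a tetraspanin of leukocytes, was at 9.44, 9.96 and 9.50 against 9.27, 8.13 and 9.28, and differed by -0.74 ± 0.35, or by -0.36 without transgenic array 2. Cd52, a small surface glycoprotein, was at 9.41, 10.03 and 10.14 against 8.65, 8.05 and 9.67, and differed by -1.07 ± 0.44, or by -0.70 without that array. Laptm5, a lysosomal membrane protein of blood cells, differed by -0.22 ± 0.17 at its brightest probe set and by -0.29 and -0.41 at the others.

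Genes of the lysosome and of lipid transport ranged from level to lower. Ctss, the cathepsin that trims the MHC class II invariant chain, was at 11.78, 11.92 and 11.64 in control and at 11.53, 11.93 and 11.88 in transgenic tumours. It was level between groups (11.78 ± 0.14 and 11.78 ± 0.22, SD, n = 3), also on transgenic array 2. Ctsb, cathepsin B, was at 11.56, 11.77 and 11.69 against 11.54, 11.30 and 11.54, a difference of -0.21 ± 0.15, and its 4 tested probe sets disagreed in sign, from -0.43 to 0.10. Lgmn, the asparaginyl endopeptidase, was at 9.74, 9.94 and 10.12 against 10.08, 8.85 and 9.66. Its difference of -0.40 ± 0.33 was -0.06 without transgenic array 2. Apoe, apolipoprotein E, was at 10.58, 11.29 and 10.91 in control and at 10.70, 8.28 and 10.39 in transgenic tumours. Transgenic array 2 was far under the rest and array 3 just under the lowest control, and the difference of -1.14 ± 0.64 (limma adjusted p 0.806) was -0.38 without it.

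**Figure D3:**
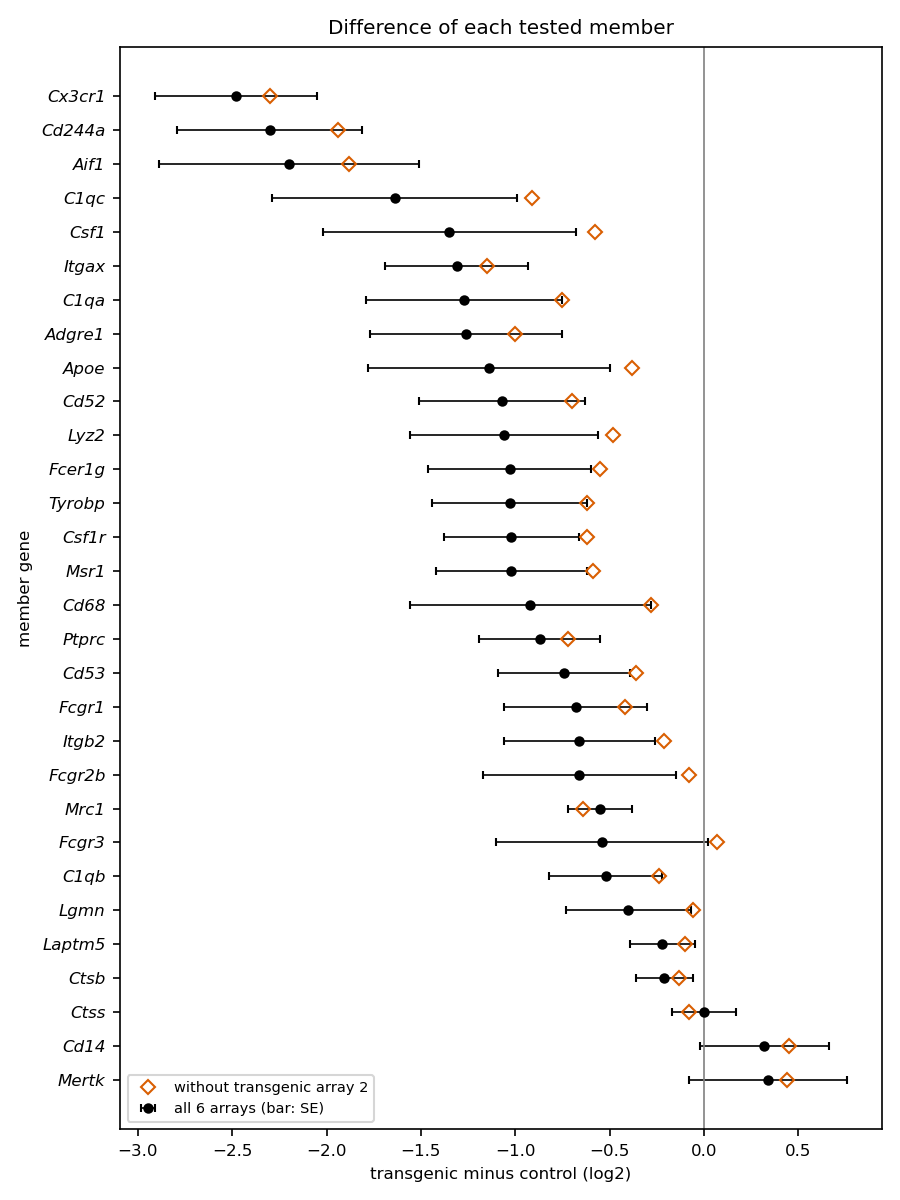
Transgenic minus control difference (log2) of each of the 30 tested genes from all 6 arrays (black, bar: SE) and without transgenic array 2 (open diamonds). Cx3cr1, Cd244a and Aif1 keep differences of -2.30, -1.94 and -1.88 without that array, while Fcgr3 and Fcgr2b come to 0.07 and -0.08.

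Array profiles of these genes are counted here beside their share over all tested genes. For 6 of the 30 genes, transgenic arrays 1 and 2 lay under every control array and array 3 did not, as for 10.9% of all tested genes, and for 3 genes array 2 alone did, against 12.7%. Among the genes with all 3 transgenic arrays under the controls, Cx3cr1, Aif1, Mrc1, Itgax and Ptprc were lowest on transgenic array 1, and Csf1r, Lyz2, Msr1, C1qc, Fcer1g, Cd244a, Cd53 and Ctsb on array 2. For Cx3cr1, Itgax and Cd244a both arrays were under 4, where their order is not reliable. Over the whole list 7 genes were lowest on transgenic array 1, where 26.9% of all tested genes were, and 1 on array 3, where 7.53% were.

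Other genes of the same pathways had smaller medians as lists, while some single genes differed by as much as the genes above, and 0 of them passed in either direction. Of 10 tested genes of CSF1 receptor and myeloid signalling, 9 were lower (median -0.40). Lcp2, the adaptor SLP-76, was at 5.14, 6.34 and 6.01 in control and at 4.29, 3.92 and 4.89 in transgenic tumours and differed by -1.46 ± 0.38 (limma adjusted p 0.806), Coro1a, an actin regulator of leukocytes, by -0.68 and Ptpn6, the phosphatase SHP-1, by -0.97. Of 16 tested genes of resident macrophages, 11 were lower (median -0.59, and -0.25 without transgenic array 2).

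Axl, a receptor for dying cells related to Mertk, was at 6.45, 7.24 and 7.09 against 4.52, 4.52 and 6.05 and differed by -1.90 ± 0.47 (limma adjusted p 0.806), where Mertk differed by 0.34. The C-type lectin genes Clec7a (dectin-1) and Clec4n (dectin-2) differed by -1.40 and -2.05. Of the 5 genes that were higher, Gpnmb, a glycoprotein of lipid-laden macrophages, differed by 1.22 and Lyve1 by 0.86. Slc40a1, the iron exporter, differed by 0.17 and Gas6, a ligand of Axl, by 0.12. Without transgenic array 2 these differences were 0.16, 0.43, -0.14 and -0.09, and those of Axl, Clec7a and Clec4n were -1.64, -0.98 and -1.28. Lyve1 was around or under the filter level on the control arrays and on transgenic array 3. Of 8 tested myeloid transcription factors 6 were lower, with a median of -0.17 that was -0.31 without transgenic array 2. Tfec passed the filter through the control arrays alone and was at least 1.4-fold lower, Irf5 differed by -0.64, or by -0.41 with values under 4 set to 4, and Nr4a1, an orphan nuclear receptor of patrolling monocytes, by 0.99. Of 16 tested lysosome genes 14 were lower, with a median of -0.16 that was -0.03 without transgenic array 2. Psap, Lipa and Ctsd, which encode prosaposin, acid lipase and cathepsin D, differed by -0.25, -0.25 and -0.39.

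**Figure D4:**
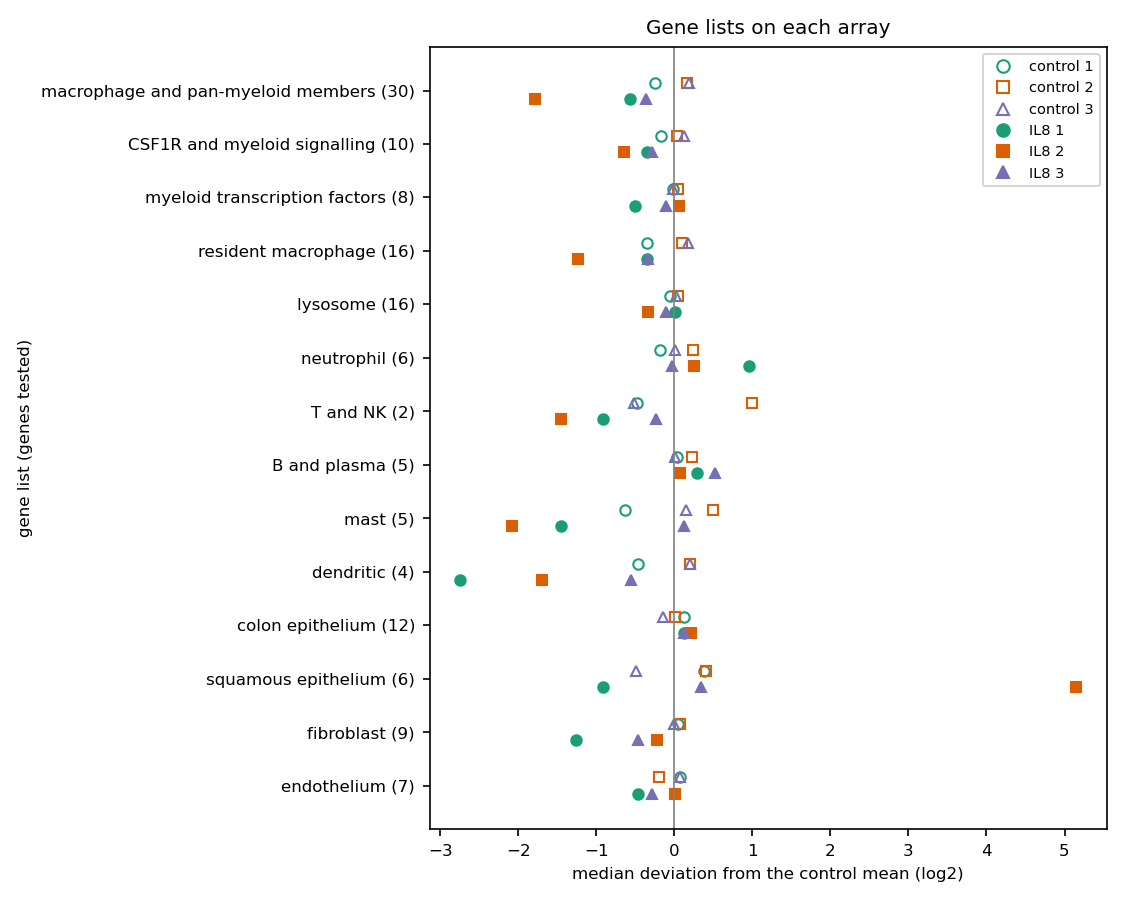
Median deviation from the control mean (log2) of the 30 tested genes and of 13 other gene lists on each array, with control arrays as open and transgenic (IL8) arrays as filled symbols, and the number of tested genes in brackets. Transgenic array 2 lies at -1.79 for the macrophage and pan-myeloid genes and at 5.15 for squamous epithelium, and transgenic array 1 at -2.74 for the dendritic list.

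Markers of other cells moved with the list on some arrays, and their part in it was not tested. Colon epithelium genes, which define the labelled tissue, were present on the arrays. All 12 were tested, 11 had a higher mean in transgenic tumours, and 0 lay under 4 on all arrays (median 0.22). The log2 of their summed linear signal was 16.18 to 16.46 in control and 16.40 to 16.49 in transgenic tumours. For squamous epithelium, with 6 of 14 measured genes tested, that sum was 8.53 to 9.78 in control tumours, 14.95 on transgenic array 2 and 9.40 to 9.45 on the others, and Ivl was under 4 throughout. Without transgenic array 2 the macrophage and pan-myeloid median of -0.51 was smaller, while Cx3cr1 differed by -2.30.

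For the dendritic list, 4 of 12 measured genes were tested, all of them for MHC class II or its invariant chain, and all 4 lay lower on every transgenic array. Its summed signal was 12.06 to 12.65 in control and 9.79 to 11.90 in transgenic tumours, lowest on array 1, and its defining genes Flt3, Zbtb46, Xcr1 and Batf3 were under 4 on every array. Of 5 tested mast cell genes 4 were lower (median -1.14, and -0.66 without transgenic array 2). The mast cell sum was 9.01 to 10.18 in control and 6.69 to 9.48 in transgenic tumours, lowest on array 2. On that array Mcpt1 (2.77), Mcpt2 (3.27) and Cpa3 (2.40) lay under every control array. Kit (4.60) and Cma1 (4.71) lay above every control array there, Cma1 only just (4.70 at most in control tumours). Cma1 differed by -0.09 between groups and Kit by 0.37. Mcpt4, Tpsb2 and Fcer1a were under 4 on every array. T and NK cell genes were mostly undetected, with 11 of 16 measured genes under 4 on all arrays, among them Cd3e, Cd247 and Ncr1, and sums of 7.23 to 7.76 and 6.86 to 7.19.

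In the neutrophil list 4 of 6 tested genes were higher, S100a8 by 0.78, S100a9 by 1.02, Ltf by 2.09 and Il1r2 by 0.28. Ltf differed by 0.99 without transgenic array 2, and Il1r2 by -0.47 without transgenic array 1. The other tested genes, Mmp9 and Lcn2, differed by -1.95 and -1.77, and by -0.83 and -0.11 without transgenic array 2. The sum of the list was 12.57 to 12.84 in control and 12.62 to 13.36 in transgenic tumours. Mmp8, Cxcr2, Camp, Elane and Mpo were under 4 on every array. Fibroblast genes were lower in all 9 tested (median -0.59, and -0.89 without transgenic array 2), with sums of 14.42 to 14.61 and 13.42 to 14.29 and Fap under 4 on every array. Endothelial genes had a median of -0.27 with 6 of 7 tested lower, sums of 9.23 to 9.30 and 8.78 to 9.02, and Tie1 and Cldn5 under 4 on every array. In the B and plasma cell list 4 of 5 tested genes were higher and 1, Ighm, passed (limma adjusted p 0.0316), with sums of 13.74 to 14.07 and 14.00 to 14.16 and Cd79a and Pax5 under 4 on every array.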

How the data were processed

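Gene expression was measured in 3 control and 3 transgenic mouse colon tumours, 1 biotin-labelled array per sample, and samples were grouped by title and genotype. The authors deposited log2 expression values made with GCRMA, per the submitters' processing notes. That method subtracts background from the probe signals and combines them into 1 value per probe set. For its version and the genome build nothing was given in the sources used here. Precision is limited by the number of arrays.

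Gene symbols came from the platform annotation supplied with the values (34945 probe sets with 1 symbol, 932 with several, 9160 unnamed here), AFFX controls were left out, and each gene was read from its brightest single-symbol probe set. In probe set names, the endings s and x mark probes shared with other transcripts. Among the tested genes the brightest probe sets of Aif1, C1qb, Fcgr2b and Laptm5 have such an ending. Of 45037 probe sets, 19310 with a log2 value of at least 4 on at least 3 arrays were fitted with limma 3.58.1 in R 4.3.3 (lmFit, eBayes), with Benjamini-Hochberg adjustment over all of them, and only the listed genes are printed. The fit was tested on data simulated with independent noise. That check covered the mean estimates and not the power to detect a change on these arrays. Differences carry the standard error of the fit, and group means the SD.

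The members, roles and gene lists were chosen with earlier results of these data known. Values on every array were given for up to 3 genes per role with the smallest p, for Itgam and for genes whose probe sets disagreed in sign, and up to 3 genes were named per pathway list. Cd68, Fcgr3 and Ctss on every array, the higher genes of the resident macrophage list and the genes named from lists of other cells fall outside that rule and were picked after their values were seen. Alternatives were no filter, a filter at 6, quantile normalization, median centring, a trended and robust prior, the replicate number as a block, array quality weights, a floor that set values under 4 to 4, the mean of all probe sets of a gene, an adjusted p threshold of 0.1, leaving out X- and Y-linked genes and leaving out each array in turn.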

Additional observations from a re-analysis of the deposited data

How the results depend on the processing

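Under the 17 alternatives run, 0 of the tested genes passed, with the smallest limma adjusted p at 0.0783 (Cd244a without transgenic array 3). The number of genes with a lower mean ran from 25 of those left by a filter at 6 to 33 with no filter, and with 1 array left out from 27 to 29. The median difference of -0.97 was between -0.97 and -0.90 in most settings, -0.71 with no filter and -0.63 with array quality weights, and with 1 array left out from -1.19 to -0.51, the last without transgenic array 2. Over all probe sets 11 passed, and 3 did without X- and Y-linked genes, with 8 to 11 when 1 array was left out. Of 506 single-gene values under alternatives, 7 in 4 genes changed sign. Ctss was at 0.01 with median centring and with array quality weights, and ran from -0.08 to 0.12 with 1 array left out (0.07 without control array 2 and 0.12 without transgenic array 1). Mertk ran from -0.13 (without control array 3) to 0.68, Cd14 from -0.07 (without transgenic array 1) to 0.58 and Fcgr3 from -1.01 to 0.07 (without transgenic array 2). The cause of these changes was not tested beyond the array left out. The replicate number as a block left 8 probe sets passing and 0 of the listed genes. Nothing says that equal numbers pair the animals, and deviations of equally numbered arrays correlated at -0.267, -0.277 and -0.051, so the pairing was not used. Values under 4 are near background and have no reliable order.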
